A study of Homo sapiens with 4 samples.

Results

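The Kruppel-like factors considered here are 10 genes of a family of zinc finger transcription factors, KLF2, KLF3, KLF4, KLF5, KLF6, KLF7, KLF9, KLF10, KLF11 and KLF13. Every probe that the array names for one of them, or whose accession is a RefSeq transcript of one, was taken, which gave 18 of the 50238 probes on the array. That choice of probes used names only and no measured value. The 10 genes themselves were chosen with earlier results of these data known. Each gene has between 1 and 4 probes, every one spotted once on an array. A549 cells, a human lung adenocarcinoma line, were kept in medium with reduced serum before treatment, and embelin, a plant benzoquinone, was then given to 2 samples at 15 µM while 2 controls of the same 4 h stayed untreated. RNA of each sample was labelled with Cy3 and hybridized to 1 array, and the 4 arrays lay on 1 slide. The labels number the replicates but do not say that they came from separate cultures, so p-values measure the spread between these samples, which may be technical. All values come from this 1 established line.

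Kruppel-like factors bind GC-rich and CACCC-type DNA through a conserved run of zinc fingers at the end of the protein, and the rest of the protein sets whether a target gene is switched on or off. KLF2, KLF4, KLF5, KLF6 and KLF7 mostly act as activators that recruit acetyltransferases. KLF3 binds the CtBP corepressors, and KLF9, KLF10, KLF11 and KLF13 bind the Sin3 corepressor. Several family members are rapidly induced by serum, growth factors, flow or stress, and in the lung KLF2 is needed for the organ to mature and KLF5 acts in the airway epithelium.

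The array probes are oligonucleotides of 60 bases, and some fall in the finger region that the family shares. A probe was marked when a reading frame without a stop held the linker between 2 fingers (histidine, threonine, glycine, any residue, a basic residue, proline and an aromatic one) or the later part of a finger (a cysteine, 12 residues, then a histidine). Of all 50238 probes 1.2% carried such a match, and of the 18 Kruppel-like factor probes 5 did. These 5 are shown, 5′ to 3′, because they measure the shared part of the family, with the linker or finger match in capitals and probes numbered by brightness within a gene.
KLF3, probe 2: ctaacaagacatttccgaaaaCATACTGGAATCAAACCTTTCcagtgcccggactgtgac
KLF6, probe 2: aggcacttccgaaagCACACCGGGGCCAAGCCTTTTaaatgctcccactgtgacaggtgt
KLF13, probe 2: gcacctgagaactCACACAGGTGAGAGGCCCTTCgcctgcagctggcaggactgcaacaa
KLF4, probe 1: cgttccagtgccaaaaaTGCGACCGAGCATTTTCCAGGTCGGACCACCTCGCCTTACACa
KLF5, probe 2: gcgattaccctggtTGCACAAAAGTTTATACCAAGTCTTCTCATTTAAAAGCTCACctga
The closest of the 153 pairs among the 18 probes were the finger probes of KLF3 and KLF6, with 72.2% identity without gaps over at least 30 bases, and every other pair was at 52.8% or below. Genome positions of the probes were not analysed here.

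In cells treated with embelin, 3 of the 10 Kruppel-like factors rose, KLF2 by 14.4-fold, KLF7 by 7.30-fold and KLF6 by 6.98-fold, and none fell. Each was called by limma with Benjamini-Hochberg adjustment over the 17649 genes tested, of which 1.81% were called, 1.25% higher and 0.561% lower. KLF10, KLF4 and KLF11 lay between 1.88-fold and 2.67-fold above the controls without passing the adjusted test. KLF13, KLF3, KLF9 and KLF5 lay within 1.26-fold of the controls. All 10 genes were well above background on all 4 arrays at the probe that stood for them, the kept probe with the highest mean signal, so the filter on dim probes removed no gene.

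The 4 arrays had 50.3% to 66.7% of probes well above background, with control replicate 2 and embelin replicate 1 at the lower end. Their signals were put on 1 scale by the 75th percentile shift named in the study's methods, to a common normalized log2 signal of 9.40, and all log2 signals below are on that scale. Over all genes tested the median difference was -0.06 in log2. Of 6 epithelial markers, 5 were well above background on all 4 arrays, and none of these 5 was called, against 1.81% of all genes. CLDN4, a tight junction gene, was above background on 1 of 2 control arrays and both embelin arrays and rose 6.88-fold (adjusted p = 0.0270 from limma). It passed the filter through the embelin arrays only, so that size and call rest on a dim control signal. All 4 genes known for high levels in A549, AKR1B10, AKR1C1, ALDH1A1 and ALDH3A1, were above background throughout. Of 10 markers of blood, endothelial, muscle and liver cells, 8 were not kept by the filter, while CD3E and the myeloid marker CD14 were kept. CD14 was above background on all 4 arrays, with log2 signals of 9.39 and 9.68 in the controls and of 9.06 and 8.80 with embelin. Any part of other cells in the results was not tested.

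**Figure D1:**
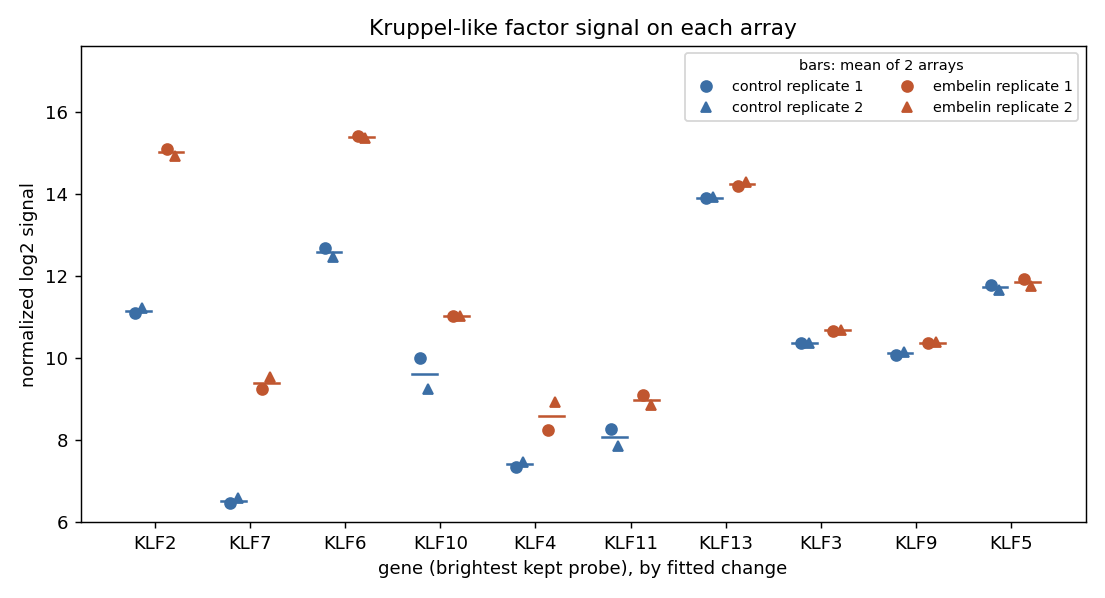
Normalized log2 signal (vertical axis) of the 10 Kruppel-like factors (horizontal axis, ordered by fitted change) on each of the 4 arrays, at the brightest kept probe of the gene. Points are arrays and short bars are means of 2 arrays. The embelin arrays lie above the control arrays for every gene but KLF5, with the widest gaps for KLF2, KLF7 and KLF6. Levels of different genes come from different probes and cannot be ranked against each other.

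Among the activators, KLF2, first described as lung Kruppel-like factor, has 2 probes. Its brighter probe had a normalized log2 signal of 11.09 and 11.22 on the control arrays and of 15.10 and 14.92 on the embelin arrays. Both embelin arrays were thus far above both controls. The group means were 11.16 ± 0.09 and 15.01 ± 0.12 (SD, n = 2). They differed by 3.85 in log2 with a standard error of 0.17, at an adjusted p of 0.0204 by limma. It was number 40 of 17649 genes by log2 fold change, and its adjusted p equalled the lowest of the whole fit. The second KLF2 probe was dim, with log2 signals of 5.47 and 5.32 in the controls, of which 1 of 2 was well above background, and of 6.60 and 7.11 with embelin. This probe passed the filter through the embelin arrays only, so its direction is no separate support. Its log2 fold change was 1.46 (95% confidence interval 0.79 to 2.14), below the interval of 3.35 to 4.36 at the brighter probe. With the mean over both probes in place of the brighter one, the gene's change was 6.31-fold (log2 fold change 2.66). Averaged in the same way KLF6 was at 3.21 and KLF7, with its single probe, at 2.87, so the order of the 3 genes turned and KLF2 came last. These means include the dim second probe of KLF2 and a probe of KLF6 that was dim in the controls. With normexp background correction the dim probe of KLF2 was 1.61-fold higher instead of 2.76-fold. That correction was run with an offset of 50 added to every intensity, which by itself lowers fold changes at dim probes.

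KLF6, a ubiquitous factor induced by tissue injury and studied as a tumour suppressor, has 4 probes. At its brightest probe the normalized log2 signal was 12.67 and 12.47 in the controls and 15.40 and 15.36 with embelin. At the finger probe printed above it was 11.00 and 11.17 in the controls and 13.94 and 14.06 with embelin. Both probes thus separated the groups by nearly the same distance. For the gene, at the brightest probe, the log2 fold change was 2.80 with a standard error of 0.17, at an adjusted p of 0.0225 by limma. It was 2.92 at the finger probe (95% confidence interval 2.41 to 3.42, adjusted p = 0.0278 from limma with each probe on its own). The third probe went from 4.85 and 3.58, with 1 of 2 control arrays well above background, to 8.12 and 8.11. Its log2 fold change of 3.90 had the wide interval of 2.64 to 5.16 and was not called (adjusted p = 0.0548 from limma, 0.0118 to 0.58 under the alternatives). This size rests on a dim control signal, being 23.2-fold without control replicate 1, 9.60-fold without control replicate 2, 4.06-fold with normexp and 14.9-fold as fitted. The third probe passed the filter through the embelin arrays only, so its direction is no separate support. The fourth probe was not well above background on any array.

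KLF7, which the array annotation calls ubiquitous and which is known for its part in the growth of nerve processes, has 1 probe. Its normalized log2 signal was 6.47 and 6.59 in the controls and 9.25 and 9.54 with embelin, so all arrays of a group were close and the groups were far apart. Embelin and control differed by 2.87 in log2 with a standard error of 0.19, at an adjusted p of 0.0233 by limma. Normexp background correction, with its offset of 50, gave 4.55-fold instead of 7.30-fold, and KLF7 was called there as well. The 95% confidence intervals of KLF7, 2.35 to 3.39, and KLF6, 2.33 to 3.27, overlapped almost entirely, whereas that of KLF2, 3.38 to 4.33, began above the end of KLF6's and just below the end of KLF7's.

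KLF4, a factor of epithelial differentiation and one of the factors used to reprogram cells to pluripotency, is measured by the finger probe shown above. Its normalized log2 signal was 7.35 and 7.48 in the controls and 8.24 and 8.93 with embelin. The groups did not overlap, but the SD of the embelin arrays was 0.48 (n = 2), against 0.09 in the controls. The log2 fold change was 1.17 (95% confidence interval 0.39 to 1.96, adjusted p = 0.141 from limma), and it was 1.51 without embelin replicate 1 and 0.83 without embelin replicate 2.

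KLF5, an activator of proliferation genes in epithelia, differed least of the 10. Its brighter probe had normalized log2 signals of 11.77 and 11.67 in the controls and of 11.91 and 11.76 with embelin, and embelin replicate 2 lay between the controls. The log2 fold change was 0.12 (95% confidence interval -0.34 to 0.58, adjusted p = 0.755 from limma). The finger probe of KLF5 gave -0.01, with an interval of -0.71 to 0.69.

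Of the factors that bind Sin3, KLF10 and KLF11 were first described as genes induced early by TGF-beta. KLF10 had normalized log2 signals of 9.99 and 9.24 in the controls and of 11.03 and 11.03 with embelin. The embelin arrays were nearly equal and above both controls, which had an SD of 0.53 (n = 2). The difference in log2 was 1.42 (95% confidence interval 0.59 to 2.24, adjusted p = 0.114 from limma). With control replicate 1 left out it was 1.79, and with control replicate 2 left out 1.04. Moderation with a trend and robust variances gave KLF10 an adjusted p of 0.0379 by limma, and the other alternatives gave up to 0.539.

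KLF11 had normalized log2 signals of 8.28 and 7.86 in the controls and of 9.10 and 8.86 with embelin at its brighter probe, with groups that did not overlap. The difference in log2 was 0.91 (95% confidence interval 0.28 to 1.54, adjusted p = 0.149 from limma). At the dimmer probe, where 1 of 2 control arrays was well above background, the signal went from 5.34 and 4.89 to 6.51 and 6.85. There the difference was 1.57 (95% confidence interval 0.87 to 2.26, adjusted p = 0.0833 from limma with each probe on its own). With normexp background correction the dimmer probe was 1.65-fold higher instead of 2.96-fold. The dimmer probe passed the filter through the embelin arrays only, so its direction is no separate support for that of the brighter one. Neither probe passed the adjusted test.

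KLF9, a target gene of glucocorticoid and thyroid hormone receptors, had normalized log2 signals of 10.08 and 10.15 in the controls and of 10.37 and 10.38 with embelin. KLF13, which drives expression of the chemokine CCL5 in T cells, had 13.89 and 13.93 in the controls and 14.19 and 14.28 with embelin at its brighter probe. For both genes the embelin arrays were slightly above the controls, by 0.26 (95% confidence interval -0.17 to 0.70) and 0.33 (95% confidence interval -0.11 to 0.77) on the log2 scale. The finger probe of KLF13 did not share this direction, with a log2 fold change of 0.0045 and overlapping groups. KLF3, which binds CtBP and represses genes in fat and blood cells, had 10.36 and 10.38 in the controls and 10.66 and 10.69 with embelin. Its difference of 0.31 (95% confidence interval -0.12 to 0.74, adjusted p = 0.378 from limma) was not called although the SD was 0.01 in the controls and 0.02 with embelin (n = 2). The KLF3 finger probe was above background on 1 array of each group and was not kept. It read 4.86 and 4.62 in the controls and 5.60 and 6.35 with embelin.

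**Figure D2:**
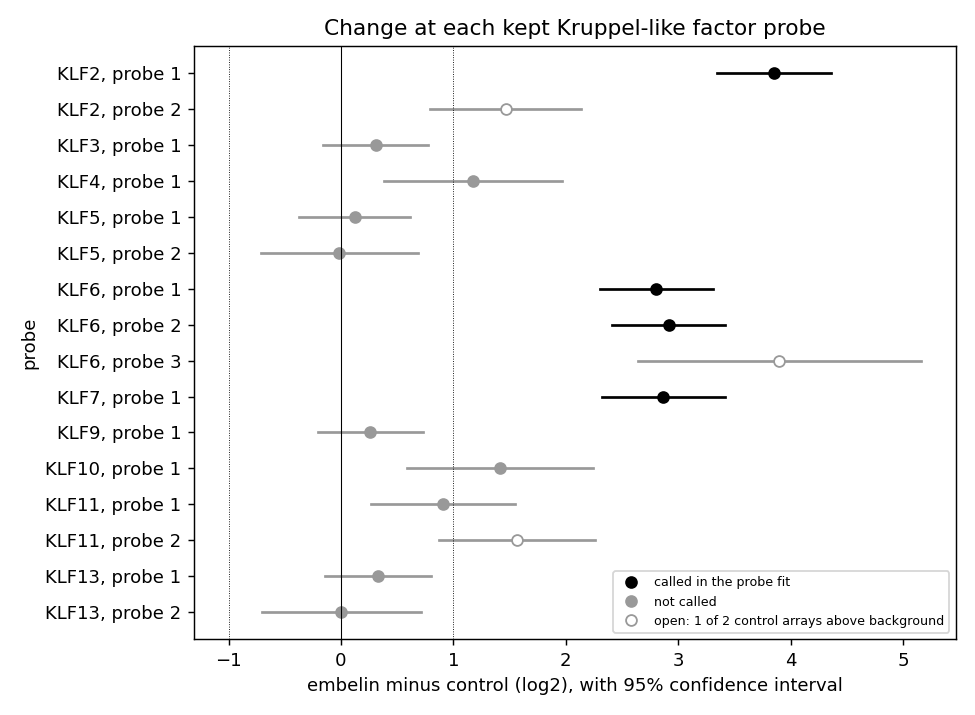
Difference between embelin and control (log2, horizontal axis) with its 95% confidence interval at each of the 16 Kruppel-like factor probes kept by the filter, from limma with each probe on its own. Black marks probes called after adjustment, open circles probes with 1 of 2 control arrays above background, and dotted lines a 2-fold change. The 4 called probes belong to KLF2, KLF6 and KLF7, and the probes of KLF2 disagree most in size.

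Since the 10 genes were chosen with earlier results of these data known, the shares that follow describe them and are not a test. They do not stand for the whole family either. The 8 other KLF and SP factors tested had a median log2 fold change of 0.18. Of the 10 genes, 9 had both embelin arrays above both control arrays, against 21.1% of the genes measured on all arrays. Both embelin arrays lay below both controls in 0 of the 10, against 30.7%. The median log2 fold change was 1.04 over the 10 genes and -0.06 over all genes tested. At an unadjusted p under 0.05 limma had 6 of the 10 higher and 0 lower, against 8.36% and 11.1% of all genes. At least a 2-fold difference was seen in 5 of the 10 (KLF2, KLF7, KLF6, KLF10 and KLF4), against 6.66% of all genes. With each probe on its own, 4 of the 16 kept probes were called higher, and of all kept probes 1.08% were called, 0.83% higher and 0.249% lower. All 3 called genes are among the 5 activators, and the other 2 of that group, KLF4 and KLF5, were at 1.17 and 0.12.

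**Figure D3:**
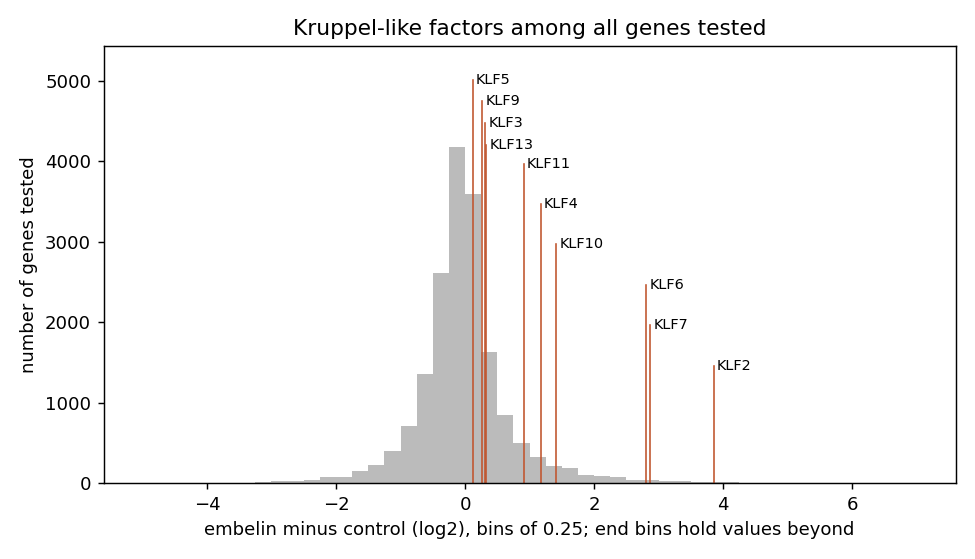
Number of genes (vertical axis) by difference between embelin and control (log2, horizontal axis, bins of 0.25) for all 17649 genes tested, with the 10 Kruppel-like factors as named lines whose heights carry no value. KLF2, KLF7 and KLF6 lie in the thin right tail, KLF10, KLF4 and KLF11 on its shoulder, and KLF13, KLF3, KLF9 and KLF5 within the main peak.

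The calls rest on 2 arrays per group, for which 0.333 is the smallest p that an exact, two-sided permutation test allows. With control replicate 1, control replicate 2, embelin replicate 1 or embelin replicate 2 left out, limma called 0 genes of the array after adjustment, and the log2 fold change of KLF2 was 3.76 to 3.94, of KLF7 2.72 to 3.01 and of KLF6 2.70 to 2.91. At an unadjusted p under 0.05, limma had 5 or 6 of the 10 Kruppel-like factors higher in these runs, against 5.52% to 8.23% of all genes. Limma with no filter on dim probes or with the position on the slide as a covariate also called 0 genes after adjustment. At an unadjusted p under 0.05 each had the same 6 higher as before, KLF2, KLF4, KLF6, KLF7, KLF10 and KLF11, against 3.57% and 7.47% of all genes. The methods' t-test called 0 genes after adjustment too. It had 6 of the 10 higher at an unadjusted p under 0.05, against 6.71% of all genes, but these were KLF2, KLF6 and KLF7 with KLF3, KLF9 and KLF13, and 3 of them also reached a 2-fold change.

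Of 17 other KLF and SP factors, 16 are on the array and 8 were kept by the filter. By limma 0 of these 8 were called, against 1.81% of all genes, so 0 in so short a list is near that share. At an unadjusted p under 0.05, 0 were higher and 0 lower, against 8.36% and 11.1% of all genes. Their median log2 fold change was 0.18. SP5, a Wnt target gene, had the largest value, with log2 signals of 6.49 and 5.96 in the controls, 1 of 2 above background, and of 8.80 and 6.99 with embelin (log2 fold change 1.67, adjusted p = 0.290 from limma). The general activator SP1 was at -0.13 and its relative SP3 at 0.19. KLF16, KLF14, KLF12 and SP2 were at -0.14, 0.36, 0.21 and 0.17. KLF1, the erythroid factor, was at 0.18 with 1 embelin array left without a value. KLF8 and KLF15 were not well above background on any array.

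Transcripts of genes that act around these factors were looked at in 5 lists. Their counts at an unadjusted p under 0.05 stand against 8.36% of all genes higher and 11.1% lower. Counts of genes called after adjustment stand against 1.81% of all genes, so 0 called in lists this short is near that share. In the route from MEKK kinases through ERK5 to the MEF2 factors, which switches on KLF2 and KLF4 in endothelium, 6 of 7 genes were tested. The ERK5 gene MAPK7 rose 4.46-fold (log2 fold change 2.16, adjusted p = 0.0267 from limma) and the other 5 were not called. At an unadjusted p under 0.05 limma had 3 of the 6 higher and 1 lower. MEF2A and MAP3K2 were at 1.05 and 0.89 in log2, and MEF2D, MAP2K5 and MAP3K3 at -0.12, -0.48 and -0.50. By limma 0 of the 9 TGF-beta ligand, receptor and SMAD genes tested were called, with unadjusted p under 0.05 for 2 higher and 2 lower. TGFBR2, the type II receptor, had a log2 fold change of -1.40 (adjusted p = 0.0549 from limma), and TGFB2, SMAD3 and SMAD2 had values of -0.65, 0.23 and 0.14. The 2 counted as higher, TGFBR1 at 1.25 and SKIL at 0.93, were picked out after their values were seen.

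By limma 0 of the 10 corepressor and coactivator genes were called, with unadjusted p under 0.05 for 1 higher and 2 lower. CTBP2, which KLF3 binds, was at -0.06, SIN3B at 0.14, and the histone deacetylase genes HDAC2 and HDAC1 at -0.69 and -0.52. SIN3A, picked out after its value was seen, had the lowest value of this list, with a log2 fold change of -0.82 (adjusted p = 0.161 from limma). By limma 0 of the 8 ubiquitin ligase genes were called, with unadjusted p under 0.05 for 1 higher and 1 lower. VHL was at 0.10, SIAH1 at 1.03, FBXW7 at 0.32 and WWP1, a ligase of KLF2 and KLF5, at -0.36.

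Of 19 genes described as direct targets of KLF2, KLF4, KLF5 or KLF6, 16 were tested and by limma 0 were called. At an unadjusted p under 0.05, 5 of the 16 were higher and 5 lower, against 8.36% and 11.1% of all genes, so members lay in both directions around a median log2 fold change of -0.03. The brightest were KRT19 at 0.05, the urokinase gene PLAU at 0.87, BIRC5 at -0.23 and the cyclin gene CCNB1 at -0.90. CDKN1A and THBD were picked out after their values were seen, as textbook targets of KLF4 or KLF6 and of KLF2. CDKN1A, the p21 inhibitor of cyclin-dependent kinases, had log2 signals of 12.11 and 12.11 in the controls and of 13.26 and 13.46 with embelin (adjusted p = 0.0585 from limma). THBD, the thrombomodulin gene that KLF2 activates in endothelium, had 13.77 and 13.23 in the controls and 12.14 and 12.03 with embelin (adjusted p = 0.0846 from limma), so its signal lay below the controls while that of KLF2 lay above.

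Of the called genes, KLF2 and KLF6 have their promoter windows shown, as these lie upstream of the whole gene. RefSeq promoter windows of build GRCh38.p14 were matched for 8 of the 10 genes, with several transcription starts for KLF5, KLF7 and KLF11, and KLF3 and KLF10 were not matched. Those of KLF7 lie within the span of the gene and are not printed. The 250 bases before the start are given 5′ to 3′ on the strand of the gene, with GGGCGG (the GC box, either strand) and CACGTG (a palindrome, the E-box) in capitals.
KLF2, chr19:16324576-16324825, plus strand: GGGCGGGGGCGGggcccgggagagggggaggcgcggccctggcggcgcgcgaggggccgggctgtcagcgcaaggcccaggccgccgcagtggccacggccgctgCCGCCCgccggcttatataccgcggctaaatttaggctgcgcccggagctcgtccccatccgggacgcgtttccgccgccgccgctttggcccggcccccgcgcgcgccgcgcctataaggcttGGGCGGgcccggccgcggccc
KLF6, chr10:3785210-3785459, minus strand: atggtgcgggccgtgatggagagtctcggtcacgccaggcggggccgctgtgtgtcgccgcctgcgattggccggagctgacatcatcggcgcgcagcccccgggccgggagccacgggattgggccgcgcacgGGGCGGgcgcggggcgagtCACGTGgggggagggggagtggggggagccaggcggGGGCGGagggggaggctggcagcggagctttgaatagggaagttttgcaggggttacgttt
The window of KLF2 was 80.0% and that of KLF6 72.4% G or C. GGGCGG occurred 4 times before KLF2 and 2 times before KLF6, and in 42.6% of all 35116 promoter windows of this length. It was found before 7 of the 8 matched genes, so it does not set these 2 apart.

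Searched on both strands, ACGTG was found before KLF4, KLF6, KLF7 and KLF11 and in 18.5% of all windows. At each of these 4 genes at least 1 window held the full palindrome CACGTG, a motif added after the matches were seen, which 6.34% of all windows held. TGACG was found before KLF4, KLF5, KLF11 and KLF13 (21.2% of all windows), its palindrome TGACGTCA before KLF11 only among the 8 genes (1.65%), CACCC before KLF5, KLF7, KLF11 and KLF13 (54.7%), and TGANTCA before none of the 8 (6.57%). KLF2, whose change was the largest of the 10 at the brightest probes though not with the mean over probes, held GGGCGG and none of the other motifs searched. These are matches of letters in a short window, given as a description, and genes with several starts had more windows in which to match.

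**Figure D4:**
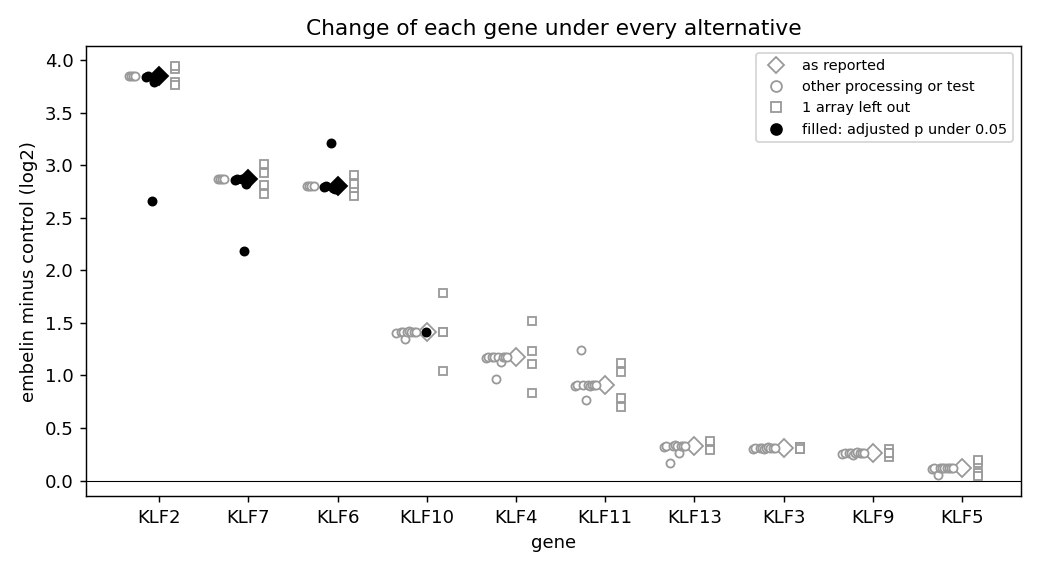
Difference between embelin and control (log2, vertical axis) of each Kruppel-like factor (horizontal axis) as reported (diamonds), under other processing or tests (circles) and with 1 array left out (squares). Filled symbols have an adjusted p under 0.05. All values lie above 0, the order of the first 3 genes against the other 7 holds in each, and squares are all open.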

How the data were processed

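RNA from 2 control and 2 embelin samples of A549 cells was hybridized to 1-colour Agilent arrays. The authors deposited the intensity of each spot from Agilent's Feature Extraction software, for which the file headers give version 10.7.3.1, with background subtracted, trends within the array removed and surrogates set for spots not above background, but not normalized between arrays. The deposited table of probe intensities was an alternative only. Per array, 97 to 117 of its 50238 values were over 0.001 (log2) away from the scanner signals averaged here.

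Each array was scaled so that all shared their 75th percentile, values under 1 were raised to 1, and log2 was taken. Outlier spots were left out before averaging within probes. The filter kept 26146 probes, those that the software flagged as well above background on the 2 arrays of either group, and the brightest stood for its gene. Of all probes 28595 were named by RefSeq accession and 2341 through another probe of the same name. The 2 groups were compared by lmFit and eBayes of limma 3.58.1, run in R 4.3.3, over 17649 genes, and also over 26145 probes, with Benjamini-Hochberg adjustment at 0.05. The fit was tested on simulated data. Precision is limited by having 2 arrays a group, and the median pooled SD was 0.21 in log2.

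All 10 members with all their probes were named, the other KLF and SP factors kept by the filter, and in each further list the called genes or else the brightest. Alternatives were other background corrections, normalizations, filters and tests, and leaving out each array. The normexp correction added an offset of 50 to every intensity. The members and lists were chosen with earlier results of these data known.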

Additional observations from a re-analysis of the deposited data

How the results depend on the processing

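Over all alternatives none of the 10 genes changed direction. KLF2, KLF6 and KLF7 and the same 4 of their probes were called with normexp background correction, quantile normalization, the deposited table, a filter asking for all 4 arrays, and trend and robust options, and the 3 genes also with the mean over probes. The third probe of KLF6 was called too with normexp and with trend and robust. As it passed the filter through the embelin arrays only, these calls are no separate support. KLF10 was called with trend and robust. With no filter on dim probes, the methods' t-test, the replicate number as a block, or position on the slide as a covariate, 0 genes and 0 probes of the family and of the whole array were called. At an unadjusted p under 0.05, 6 of the 10 genes were higher in each, against 3.57%, 6.71%, 9.48% and 7.47% of all genes, in that order. Under the t-test KLF3, KLF9 and KLF13 stood in place of KLF4, KLF10 and KLF11. Leaving out 1 array, which leaves a group of 1, gave log2 fold changes of 3.76 to 3.94 for KLF2, 2.72 to 3.01 for KLF7 and 2.70 to 2.91 for KLF6. Whether the replicate numbers pair the samples cannot be told from 2 pairs (correlation of deviations 0.175). The block took the calls from 320 to 0 genes. Genes at an unadjusted p under 0.05 by limma went from 3442 of 17649 to 3684 of 17298 with it. The whole array had 320 genes and 282 probes called, against 699 and 819 with normexp, 194 and 168 with quantile normalization, 159 and 158 with the deposited table, 764 and 768 with the filter for all 4 arrays, and 1061 and 1296 with trend and robust. The cause of these shifts was not tested. With normexp KLF7 was at 2.19 in log2, the third probe of KLF6 at 2.02, and the second probes of KLF11 and KLF2 at 0.72 and 0.68. The mean over probes, which includes dim probes of KLF2 and KLF6, placed KLF2 below KLF6 and KLF7. The second probe of KLF13, at 0.0045, was -0.0045 with normexp, -0.018 with quantile normalization, -0.0046 with the deposited table and -0.21 to 0.22 with 1 array left out. The second probe of KLF5, at -0.01, was 0.0032 with quantile normalization and -0.25 to 0.22 with 1 array left out. Signal over background limits the dim probes of KLF2, KLF3, KLF6 and KLF11.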
